A study of Mus musculus with 8 samples.

Results

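The Hox genes encode homeodomain transcription factors and lie in 4 clusters. Every protein-coding Hoxa, Hoxb, Hoxc and Hoxd gene numbered 1 to 13 was taken by its symbol from a table of raw counts, which gave 39 genes out of 32728. In the GRCm38 (mm10) build, 11 of them form HoxA (chr6:52155590-52260880, 105.3 kb, minus strand), 10 form HoxB (chr11:96194316-96368256, 173.9 kb, plus strand), 9 form HoxC (chr15:102921103-103036852, 115.8 kb, plus strand) and 9 form HoxD (chr2:74668310-74765142, 96.8 kb, plus strand). They are described here by cluster and by paralog group, the number in the name, in the blocks 1-5, 6-8 and 9-13.

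The samples were mouse colon cancer organoids, which are epithelial cultures grown in a gel, of strain C57BL/6. The labels give the line apsMC706 as female and the line CTO19 as male. In both, Apc, Trp53 and Smad4 had been knocked out by CRISPR, and no line without these knockouts was analysed here. All groups had B27, noggin, which blocks BMP ligands, and galunisertib, an inhibitor of the TGF-beta receptor. The medium called EM added EGF and was used for 3 days, and noEGF lacked EGF for 7 days. Each of the 4 combinations of line and medium had 2 libraries of poly(A)-selected RNA. The labels call the lines biological replicates of the genotype and do not say that the 2 libraries of a group came from separate cultures, so p-values measure the spread between these libraries, which may be technical. Medium and days in culture cannot be told apart, nor can line and labelled sex, and each line is a single line.

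Library totals were 35650262 to 38953838 counts, and the Hox genes took 0.0354% to 0.0802% of them. Of the 3 targeted genes, Apc had 195 and 178 CPM in apsMC706 (EM and noEGF) and 64.3 and 78.1 CPM in CTO19, Smad4 had 34.0 and 39.4 against 11.8 and 18.6, and Trp53 had 14.7 and 15.2 against 30.8 and 29.7. Gene counts do not show a small CRISPR lesion and so do not check the genotype. CPM (counts normalised to library size) is scaled here by the library's effective (TMM-scaled) total, and values after ± are SDs of 2 libraries unless SE is written. Of 9 genes of intestinal epithelium, Epcam, Cdh1 and Krt8 were high in every group, with lowest library values of 345, 591 and 377 CPM. Krt20 had no count in apsMC706 EM. Of the 8 tested, 2 were higher and 5 lower in CTO19 EM, against 37.5% and 33.8% of all tested genes. In noEGF 2 were higher and 6 lower, against 45.7% and 34.3%. Cdx2, the intestinal master regulator, had 9.31 CPM in apsMC706 EM and 2.05 in CTO19 EM, and Car1, a colon enzyme, had 1.44 and no count. Car4 and Slc26a3, other colon genes, had no count in EM in either line. Of the 8 colon genes listed, 6 were among the counted genes. These 6 summed to 68.4 to 71.5 CPM in apsMC706 EM and 6.52 to 8.25 in CTO19 EM. Aqp8 also had no count in apsMC706 EM, so with Car1 at 1.44 the sum there came almost wholly from the remaining members. Of the 3 colon genes tested, 2 were lower in CTO19 in each medium and none was higher. Under other scalings, filters or DESeq2's test, 0 to 1 was higher. All 7 squamous genes tested were higher in CTO19 in both media, and their sum was 83.3 to 84.6 CPM in apsMC706 EM and 9199 to 9396 CPM in CTO19 EM. The part of these markers in the Hox differences below was not tested.

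Hox genes are transcribed along the body axis in the order in which they lie in their cluster: low numbers, at the 3′ side, act anteriorly, and high numbers, at the 5′ side, act posteriorly. In the gut, genes of the posterior groups mark the hindgut, Hoxa13 and Hoxd13 are needed to form its end, and Hoxb13 is a marker of the distal colon. Hox proteins bind DNA together with TALE homeodomain partners of the Pbx and Meis families. Polycomb complexes keep silent Hox genes silent, Trithorax (MLL) complexes keep active ones active, and Cdx proteins and retinoic acid are known to activate Hox genes in the embryo.

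Upstream sequences of 22 of the 39 genes are in the RefSeq promoter table (GRCm38.p6), as 24 start sites. The stretches of Hoxb8, Hoxa13 and Hoxa11 are shown because Hoxb8 was far higher in CTO19 and the others far higher in apsMC706, and because their RefSeq starts are the GENCODE gene starts. They lie at chr11:96281655-96281904 (plus strand), chr6:52260881-52261130 (minus strand) and chr6:52245811-52246060 (minus strand). Each is the 250 bases before the start, on the gene's strand, and capitals mark TTTATNG, letters close to the site bound by Cdx proteins, searched on both strands.
Hoxb8 promoter: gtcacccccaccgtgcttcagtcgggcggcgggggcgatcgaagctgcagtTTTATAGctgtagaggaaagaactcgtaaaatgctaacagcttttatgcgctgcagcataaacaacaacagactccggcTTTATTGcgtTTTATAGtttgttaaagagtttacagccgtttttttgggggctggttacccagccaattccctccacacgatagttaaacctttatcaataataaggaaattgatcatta
Hoxa13 promoter: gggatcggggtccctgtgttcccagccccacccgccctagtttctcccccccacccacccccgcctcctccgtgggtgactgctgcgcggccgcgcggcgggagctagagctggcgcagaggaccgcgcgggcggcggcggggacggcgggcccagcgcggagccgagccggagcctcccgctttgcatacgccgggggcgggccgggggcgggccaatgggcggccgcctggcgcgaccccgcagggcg
Hoxa11 promoter: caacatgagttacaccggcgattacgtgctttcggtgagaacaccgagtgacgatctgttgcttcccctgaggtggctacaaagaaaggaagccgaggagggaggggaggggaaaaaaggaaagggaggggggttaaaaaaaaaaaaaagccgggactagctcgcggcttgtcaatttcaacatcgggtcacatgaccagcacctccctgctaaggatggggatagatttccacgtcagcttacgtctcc
The Hoxb8 stretch held TTTATNG 3 times and the other stretches shown did not hold it. Of 32851 promoters in the table, 9.81% held it at least 1 time and 16 (0.0487%) held it 3 times or more. Among the 24 Hox start sites, Hoxb8 and a site of Hoxd4 held it. TATAAA was found 2 times in the Hoxb8 stretch, both on the opposite strand within TTTATNG matches, and in 12.4% of all promoters. TGATTNAT, letters like those bound by Hox and Pbx proteins together, was found at 1 site of Hoxa2 and 1 of Hoxd11 and in 2.82% of all promoters. The Hoxa13 stretch had 35 CG dinucleotides and the Hoxb8 stretch 12, against a median of 6 over all promoters and 12.5 over the 24 Hox start sites, of which 19 were above 6. These matches describe the letters and do not show binding.

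The clusters also hold microRNA genes, and the sequence pair below is shown because Hoxb8 is a known target of miR-196a, whose precursor gene lies inside HoxB and rose in CTO19 noEGF as Hoxb8 did. The mature sequence is from RefSeq with its seed, bases 2 to 8, in capitals. The Hoxb8 site is a 22-base stretch of the Hoxb8 3′ UTR (chr11:96284888-96284909, plus strand, GRCm38). Capitals there mark the 21 bases complementary to the microRNA (A with U, G with C). The remaining g faces a U of the seed, so Hoxb8 is not among the exact seed matches counted below.
miR-196a-5p: uAGGUAGUuucauguuguuggg
Hoxb8 site: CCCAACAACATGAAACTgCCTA
miR-196a is known to direct cleavage of the Hoxb8 message at this site. An exact match to the seed was found in the longest annotated 3′ UTR of 9 of the 39 Hox genes, 4 times in Hoxa7, 2 times in Hoxc8 and 1 time in each of the others, among them Hoxa4, Hoxa5, Hoxa9, Hoxb1, Hoxb6 and Hoxb7, and in 6.1% of 21021 genes. Mature microRNAs were not measured.

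Detected Hox expression came almost wholly from HoxA and HoxB. The lines differed in the shares of these clusters, which were near even in apsMC706 and almost all HoxB in CTO19. Summed over members as CPM per kb of exon, the scale on which genes of different length can be compared, HoxA and HoxB stood at 105 ± 3.66 and 96.6 ± 1.49 in apsMC706 EM, and at 6.68 ± 0.0968 and 153 ± 5.74 in CTO19 EM. HoxA thus held 52.0% of the summed Hox level in apsMC706 EM and 4.18% in CTO19 EM. In noEGF the sums were 62.9 ± 0.503 (HoxA) and 71.0 ± 0.300 (HoxB) in apsMC706, and 4.78 ± 0.520 and 319.6 ± 1.80 in CTO19, so that HoxA held 46.9% and 1.47%. HoxC and HoxD sums did not exceed 0.160 and 0.257 CPM per kb in any group. These are bulk samples, so fewer cells that express a gene and less RNA per cell cannot be told apart. The sums have no test of their own, and the gene tests follow.

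**Figure D1:**
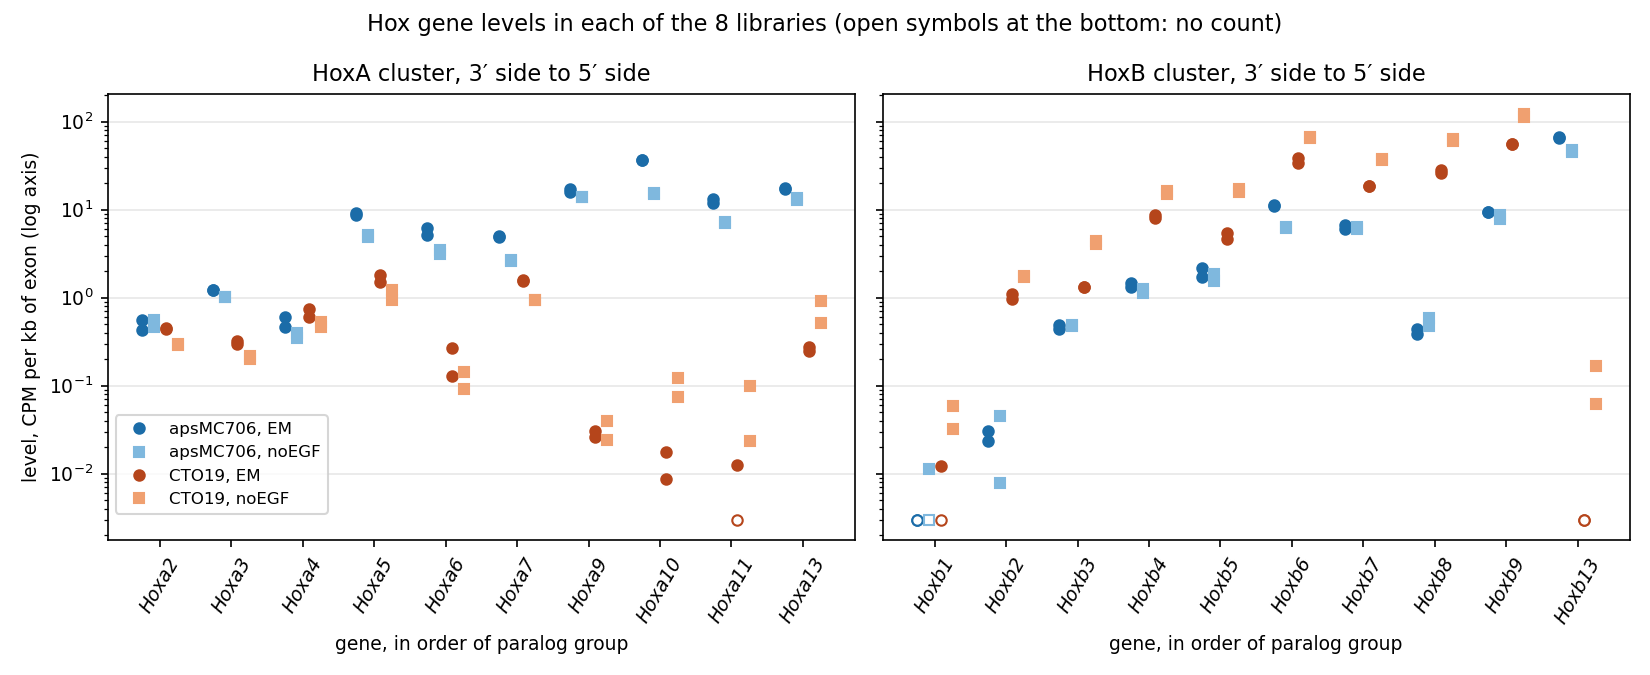
Level of 10 HoxA genes (left) and the 10 HoxB genes (right) in CPM per kb of exon on a log axis, with genes in order of paralog group from the 3′ to the 5′ side. Each point is a library, colours and shapes give the 4 groups, and open symbols at the bottom are libraries with no count. From Hoxa9 to Hoxa13 and at Hoxb13 the apsMC706 points lie far above the CTO19 points, and from Hoxb2 to Hoxb9 the order is the reverse.

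Groups 9-13 held 78.1% of the summed level in apsMC706 EM and 34.9% in CTO19 EM, and groups 6-8 held 14.1% and 52.3%. The HoxA genes of groups 9-13 summed to 82.9 ± 2.33 CPM per kb in apsMC706 EM and 0.307 ± 0.00663 in CTO19 EM, a ratio of means of 270.2. The HoxA genes of groups 6-8 and 1-5 differed less, with ratios of 5.97 and 2.54 in the same direction. HoxB ran the other way: groups 6-8 summed to 17.9 ± 0.0763 in apsMC706 EM and 81.8 ± 4.64 in CTO19 EM, and groups 1-5 to 3.84 ± 0.472 and 15.7 ± 1.03. HoxB groups 9-13, which are Hoxb9 and Hoxb13, had closer sums (74.9 ± 1.09 and 55.4 ± 0.0649) made of different genes, Hoxb13 in apsMC706 and Hoxb9 in CTO19.

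**Figure D2:**
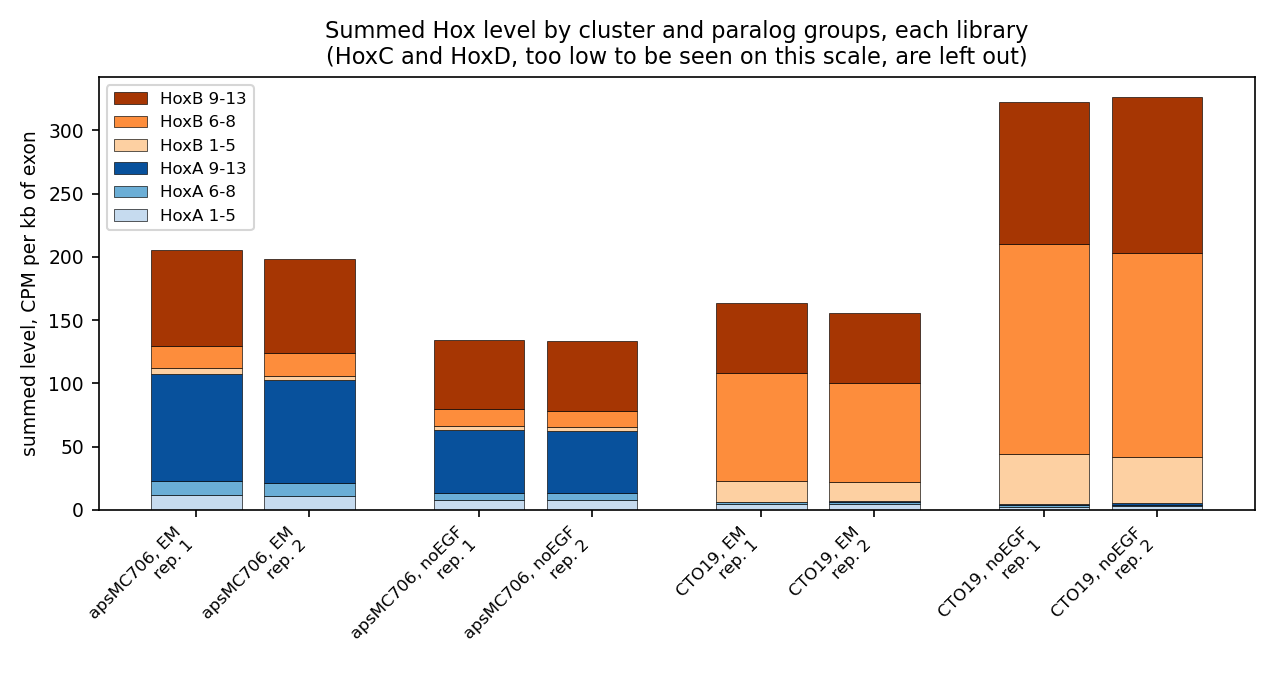
Summed level of the HoxA and HoxB genes in CPM per kb of exon in each of the 8 libraries, stacked by cluster and paralog groups, from an axis that starts at 0. HoxA groups 9-13 form a large part of the apsMC706 bars (82.9 in EM) and cannot be seen in the CTO19 bars (0.307 in EM), and the CTO19 noEGF bars are the tallest, at 323 and 326 for all Hox genes.

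Of the 39 genes, 22 had enough counts to be tested: all 11 of HoxA, 9 of HoxB (Hoxb1 was not), none of HoxC, and Hoxd4 and Hoxd8. The other 17 had at most 8 counts in any library, and Hoxc12 had none. A mean of at least 1 CPM in some group was reached by 19 genes, all in HoxA or HoxB. Genes passed the filter through the group in which they were high, so shares of the tested genes say little by themselves. In EM, with the edgeR quasi-likelihood test and Benjamini-Hochberg adjustment over 16719 genes, 9 of the 22 were higher in CTO19 and 10 lower, against 37.5% and 33.8% of all tested genes. At 4-fold or more, a rule added after the data were seen, 4 were higher and 8 lower, against 13% and 4.74% of all genes. By cluster, 8 of 9 tested HoxB genes were higher in CTO19 and 8 of 11 HoxA genes lower. The median log2 difference (CTO19 minus apsMC706) was -2.42 over the 11 HoxA genes and 1.71 over the 9 HoxB genes.

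In noEGF, 9 of the 22 were higher in CTO19 and 11 lower, against 45.7% and 34.3% of all tested genes, and at 4-fold or more 9 were higher and 8 lower, against 13.7% and 5.54%. The same 8 HoxB genes, Hoxb2 to Hoxb9, were higher in both media, and at least 4-fold in noEGF. The medians there were -2.27 for HoxA and 3.40 for HoxB.

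Hoxb13 (ENSMUSG00000049604, chr11:96194316-96197447), the marker of distal colon at the 5′ end of HoxB, was the Hox gene with the highest level per kb in apsMC706 (65.6 in EM). It stood at 146 and 143 CPM in the apsMC706 EM libraries and 100.3 and 105 in noEGF. CTO19 had no count of it in either EM library and 5 and 15 counts in noEGF. With 3 counts per library as the most that a count of 0 allows, Hoxb13 was at least 1691-fold lower in CTO19 EM, and the log2 difference in noEGF was -8.61 ± 0.12 (SE), adjusted p = 1.38e-15. Without CTO19 noEGF replicate 2, the library with 15 counts, that difference was -9.62. No HoxB gene lies between Hoxb13 and Hoxb9, which are 74.0 kb apart, and Hoxb9, the next gene, differed in the opposite direction.

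Hoxa13 (ENSMUSG00000038203, chr6:52257694-52260880), the 5′ end of HoxA and needed to form the hindgut's end, stood at 43.3 and 42.7 CPM in apsMC706 EM, 33.0 and 31.3 in apsMC706 noEGF, 0.608 and 0.674 in CTO19 EM and 1.26 and 2.26 in CTO19 noEGF. The groups of the lines lay apart, and the log2 difference in EM was -6.06 ± 0.16 (SE), adjusted p = 3.79e-12. Hoxa11, a gene of limb and urogenital patterning, stood at 30.1 and 27.1 CPM in apsMC706 EM and 15.9 and 16.6 in noEGF, and had 1 and 0 counts in CTO19 EM and 2 and 9 in noEGF. The ratio of group totals in EM was 2007 (apsMC706 over CTO19, exact 95% counting interval 359.8 to 79303). Exons of Hoxa11os, on the opposite strand, cover 35.0% of the Hoxa11 exons, and the library kit does not mark strand, so reads of the pair cannot be told apart there.

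Hoxa10, of lumbar and uterine patterning, stood at 120.2 and 118 CPM in apsMC706 EM and 49.9 and 48.9 in noEGF, against 2 and 1 counts in CTO19 EM and 9 and 16 in noEGF. Its EM ratio was 2789 (954 to 13527). Hoxa9, known for its role in blood stem cells, stood at 95.6 and 89.1 CPM in apsMC706 EM, 77.5 and 77.5 in apsMC706 noEGF, 0.145 and 0.169 in CTO19 EM and 0.135 and 0.224 in CTO19 noEGF, with a log2 difference in EM of -9.17 ± 0.12 (SE), adjusted p = 3.72e-17. All 4 HoxA genes of groups 9-13 therefore stood at 15.9 CPM or more in each apsMC706 library and near the counting floor (0.0745 to 0.0868 CPM) up to 2.26 CPM in CTO19.

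In EM the HoxA genes of lower groups described here differed by less. Hoxa7 stood at 14.6 and 13.9 CPM in apsMC706 EM, 7.47 and 7.77 in apsMC706 noEGF, 4.46 and 4.61 in CTO19 EM and 2.66 and 2.71 in CTO19 noEGF, a log2 difference in EM of -1.65 ± 0.09 (SE), adjusted p = 5.3e-10. Exons of the antisense transcript Hoxaas3 cover 20.4% of its exons. Hoxa6 stood at 5.40 and 4.47 CPM in apsMC706 EM, 2.7 and 3.01 in apsMC706 noEGF, 0.232 and 0.112 in CTO19 EM and 0.0807 and 0.124 in CTO19 noEGF, and its difference was -4.82 ± 0.28 in EM (-5.42 without CTO19 EM replicate 1) and -4.74 ± 0.33 in noEGF, where Hoxa13 differed by -4.17 ± 0.13. Hoxa5, needed for lung and gut patterning, stood at 17.1 and 16.1 CPM in apsMC706 EM, 9.52 and 9.11 in apsMC706 noEGF, 2.81 and 3.37 in CTO19 EM and 1.78 and 2.31 in CTO19 noEGF, with -2.42 ± 0.12. Each of these 3 was lower in CTO19 in both media.

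Hoxa3, which patterns the pharynx, stood at 7.30 and 7.33 CPM in apsMC706 EM, 6.11 and 6.05 in apsMC706 noEGF, 1.91 and 1.80 in CTO19 EM and 1.29 and 1.22 in CTO19 noEGF, and was lower in CTO19 in EM (-1.98 ± 0.13). Hoxa4 stood at 0.741 and 0.953 CPM in apsMC706 EM, 0.627 and 0.555 in apsMC706 noEGF, 0.955 and 1.18 in CTO19 EM and 0.834 and 0.745 in CTO19 noEGF. Its difference in EM did not pass (log2 0.34 ± 0.26 (SE), adjusted p = 0.255). Hoxa2, below 1 CPM in every group, passed as a line difference in noEGF alone, where it was lower in CTO19 (log2 -0.80 ± 0.28 (SE), adjusted p = 0.0174). That call was lost with DESeq2's test (adjusted p = 0.0935) and without apsMC706 noEGF replicate 1 (0.109).

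In HoxB, Hoxb8 (ENSMUSG00000056648, chr11:96281905-96285315), known for its role in myeloid progenitors and shown above by its promoter and its miR-196a site, had the largest gain in CTO19 among the 8 genes. It stood at 1.01 and 1.14 CPM in apsMC706 EM, 1.53 and 1.24 in apsMC706 noEGF, 74.5 and 68.2 in CTO19 EM and 165 and 157 in CTO19 noEGF, which is 66.2-fold higher in CTO19 EM (log2 6.05 ± 0.10 (SE), adjusted p = 2.07e-16) and 116-fold higher in noEGF. Its neighbours on either side differed by far less. Hoxb9 (ENSMUSG00000020875, chr11:96271457-96276595), on its 5′ side, stood at 24.2 and 23.9 CPM in apsMC706 EM, 22.3 and 19.9 in apsMC706 noEGF, 143 and 143 in CTO19 EM and 289.8 and 315 in CTO19 noEGF, a log2 difference in EM of 2.57 ± 0.06 (SE), adjusted p = 9.13e-15. Hoxb7, on its 3′ side, stood at 9.39 and 10.3 CPM in apsMC706 EM, 9.71 and 9.22 in apsMC706 noEGF, 28.3 and 28.6 in CTO19 EM and 55.9 and 57.6 in CTO19 noEGF, with 1.54 ± 0.07. In apsMC706 EM, Hoxb8 was thus at 0.408 CPM per kb between Hoxb9 at 9.34 and Hoxb7 at 6.37, whereas in CTO19 EM it was at 27.1 between 55.4 and 18.4.

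Hoxb6 stood at 22.3 and 21.3 CPM in apsMC706 EM, 12.3 and 12.3 in apsMC706 noEGF, 75.6 and 67.0 in CTO19 EM and 132 and 127 in CTO19 noEGF, and was higher in CTO19 EM by a log2 fold change of 1.71 ± 0.06. Hoxb5, which takes part in forming the enteric nervous system, stood at 6.09 and 4.79 CPM in apsMC706 EM, 5.18 and 4.25 in apsMC706 noEGF, 15.1 and 12.9 in CTO19 EM and 48.0 and 44.1 in CTO19 noEGF. Its EM difference of 1.36 ± 0.13 was the smallest among Hoxb2 to Hoxb9. Hoxb4, a gene of blood stem cell growth, stood at 3.76 and 3.38 CPM in apsMC706 EM, 2.89 and 3.20 in apsMC706 noEGF, 22.2 and 20.7 in CTO19 EM and 41.6 and 38.7 in CTO19 noEGF, with 2.59 ± 0.09.

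Hoxb3 stood at 2.09 and 1.88 CPM in apsMC706 EM, 2.10 and 2.01 in apsMC706 noEGF, 5.62 and 5.62 in CTO19 EM and 18.6 and 17.2 in CTO19 noEGF, with an EM difference of 1.50 ± 0.13. Hoxb2, a hindbrain gene, was close to the floor in apsMC706, with 4 and 3 counts in EM and 1 and 6 in noEGF, and stood at 3.79 and 3.40 CPM in CTO19 EM and 6.05 and 5.94 in noEGF. Its log2 difference in EM was 5.21 ± 0.33 (SE), adjusted p = 1.82e-09. The antisense transcript Hoxb3os covers 52.9% of Hoxb3 exons and 27.3% of Hoxb2 exons, so these counts may hold its reads. Hoxb1, at the 3′ end, had at most 5 counts in a library.

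The order of levels within a line was led by posterior genes in apsMC706 and by Hoxb9 and the middle HoxB genes in CTO19. In apsMC706 EM the per-kb order ran Hoxb13, Hoxa10, Hoxa13, Hoxa9 and Hoxa11 (65.6, 36.5, 17.4, 16.5 and 12.5 CPM per kb), all of groups 9 and above, before any other gene, and the libraries of neighbours in this order did not overlap. In CTO19 EM it ran Hoxb9, Hoxb6, Hoxb8, Hoxb7, Hoxb4 and Hoxb5 (55.4, 36.3, 27.1, 18.4, 8.37 and 5.02), also without overlap of neighbours. In noEGF the first genes were Hoxb13 at 46.5 in apsMC706 and Hoxb9 at 117 in CTO19. Per-kb levels depend on the length used: with the longest transcript in place of all exons, Hoxa3 rose 2.32 times, Hoxa9 1.73 times and Hoxa7 1.42 times, which puts Hoxa9 above Hoxa13 in apsMC706 EM.

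Paralogs share a number and much of their DNA-binding domain. In 4 paralog groups, 9, 5, 3 and 2, the HoxA gene had the higher level in apsMC706 EM and the HoxB gene in CTO19 EM. In group 9, Hoxa9 made up 63.9% of the summed level in apsMC706 EM and 0.0506% in CTO19 EM. Hoxb9 made up 36.1% and 99.95%, and the group's totals were 25.9 and 55.5 CPM per kb. Group 5 had totals of 10.8 and 6.67, of which Hoxa5 made up 81.9% and 24.7%. In group 3, where the totals were 1.69 and 1.63, Hoxa3 made up 71.8% and 18.9%. In group 2, Hoxa2 made up 94.8% and 30.4%. In groups 4, 6, 7 and 8 HoxB led in both lines, with 56.3% and 92.1% in group 7. In groups 10, 11 and 13 no paralog reached a like level in CTO19. HoxB has no gene of groups 10 and 11, and their totals were 36.5 and 12.5 CPM per kb in apsMC706 EM and 0.0209 and 0.0169 in CTO19 EM. Group 13 stood at 83.0 and 0.259. These shares are descriptions without a test.

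HoxC and HoxD were nearly silent. Among the 9 HoxC genes the most counts in a library were 8, of Hoxc5 in CTO19 noEGF, and no HoxC gene was tested. Hoxd13, the posterior HoxD gene that acts with Hoxa13 in the hindgut, had 1 count over the 8 libraries, in CTO19 noEGF. Hoxd4 had 20 and 24 counts in apsMC706 EM, 14 and 9 in apsMC706 noEGF, 1 and 1 in CTO19 EM and 4 and 5 in CTO19 noEGF, a ratio of 20.7 in EM (apsMC706 over CTO19, 5.40 to 176). Of its exons, 13.2% are shared with Hoxd3 and 39.1% with the annotated gene Gm28230. Hoxd8 had 3 and 5, 1 and 1, 1 and 1 and 16 and 18 counts in the same order of groups, and in noEGF was 16.4 times as high in CTO19 (4.20 to 141).

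Between the media the clusters parted in CTO19, and in apsMC706 the sums of both were lower in noEGF. In CTO19 all 9 tested HoxB genes rose in noEGF, while in apsMC706 the posterior HoxA genes and Hoxb13 fell. In CTO19 the sum of HoxB went from 153 to 319.6 CPM per kb and that of HoxA from 6.68 to 4.78. In apsMC706 HoxB went from 96.6 to 71.0 and HoxA from 105 to 62.9. Over all Hox genes the sum moved from 159.7 ± 5.66 to 325 ± 2.29 in CTO19 and from 202 ± 5.10 to 134 ± 0.255 in apsMC706.

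**Figure D3:**
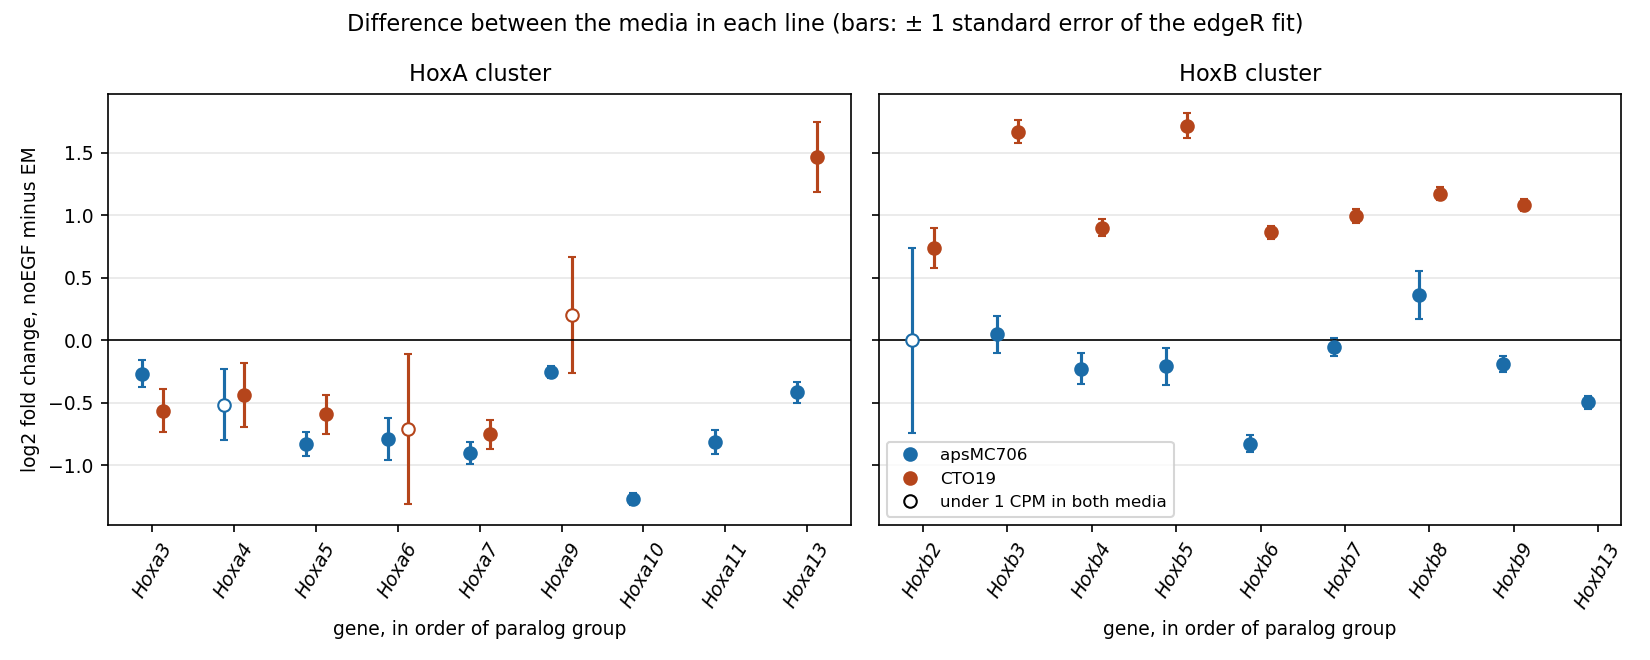
Log2 fold change of noEGF against EM for HoxA genes (left) and HoxB genes (right) that reached 1 CPM in some group, in apsMC706 (blue) and CTO19 (red), with bars of 1 SE of the edgeR fit. Open symbols are below 1 CPM in both media of that line, and the CTO19 values of Hoxa10, Hoxa11 and Hoxb13 are left out because CTO19 EM had 3 counts or fewer. From Hoxb2 to Hoxb9 the CTO19 points lie at 0.74 to 1.72, above the apsMC706 points.

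In CTO19, 13 of the 22 tested genes rose in noEGF and 4 fell, against 34.7% and 33.3% of all tested genes, with a median log2 fold change of 0.95 against 0.02 over all genes. Placing Hoxa10, Hoxb13 and Hoxd8, which had at most 3 counts over both EM libraries and 20 or more in noEGF, at their bound or counted ratio left that median at 0.95. Each lies above the median either way, so this step could not move it. With the 4 CTO19 libraries analysed alone, 16 Hox genes passed the filter, of which 10 rose and 4 fell. Hoxa6, Hoxa9, Hoxa10, Hoxa11, Hoxb13 and Hoxd4 were then not tested. Hoxb5 and Hoxb3 rose most among Hoxb2 to Hoxb9 (log2 1.72 ± 0.10 (SE), adjusted p = 2.62e-08, and 1.67 ± 0.09 (SE), adjusted p = 1.11e-09). Hoxb8 rose by 1.17 ± 0.05, Hoxb9 by 1.08 ± 0.05, Hoxb7 by 1.00 ± 0.05, Hoxb4 by 0.90 ± 0.07, Hoxb6 by 0.86 ± 0.05 and Hoxb2 by 0.74 ± 0.16. The 8 genes from Hoxb2 to Hoxb9 thus moved by 1.67-fold to 3.29-fold, and the libraries of the media lay apart for each. Hoxb13, with no count in EM and 5 and 15 counts in noEGF, was at least 2.96-fold higher (at least 1.57-fold without CTO19 noEGF replicate 2).

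The HoxA genes of CTO19 that passed between the media split by position. Hoxa2, Hoxa4, Hoxa6 and Hoxa9 did not pass (log2 -0.62 ± 0.29, -0.44 ± 0.26, -0.71 ± 0.60 and 0.20 ± 0.46, SE). Toward the 3′ side, Hoxa3, Hoxa5 and Hoxa7 fell (log2 -0.56 ± 0.17, -0.59 ± 0.16 and -0.75 ± 0.12). The call of Hoxa3 was lost with DESeq2 (adjusted p = 0.0526) and without CTO19 noEGF replicate 2 (0.0601), and that of Hoxa5 without CTO19 noEGF replicate 1 (0.0519). Toward the 5′ side, Hoxa13, Hoxa10 and Hoxa11 rose at very low levels. Hoxa13 went from 21 and 24 counts to 47 and 91 (log2 1.47 ± 0.28 (SE), adjusted p = 0.000565), and Hoxa10 from 2 and 1 to 9 and 16, a ratio of 7.55 (exact 95% counting interval 2.30 to 39.1). Hoxa11 went from 1 and 0 to 2 and 9 counts, and its call was lost without CTO19 EM replicate 2 (adjusted p = 0.116) and without CTO19 noEGF replicate 2 (0.34). That second noEGF library was the higher one for Hoxa13, Hoxa10, Hoxa11, Hoxa9 and Hoxb13.

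In apsMC706, 12 of the 22 fell in noEGF and 1 rose, against 33.1% and 34.1% of all tested genes, with a median of -0.34 against 0.000899 over all genes. All 6 tested genes of groups 9-13 fell. Hoxa10 fell most among the 19 genes at 1 CPM or more (log2 -1.27 ± 0.05 (SE), adjusted p = 1.12e-11), followed by Hoxa7 (-0.90 ± 0.09), Hoxa5 (-0.83 ± 0.10), Hoxb6 (-0.83 ± 0.07), Hoxa11 (-0.81 ± 0.09) and Hoxa6 (-0.79 ± 0.17). Hoxb13, Hoxa13 and Hoxa9 fell by less (-0.50 ± 0.05, -0.42 ± 0.09 and -0.25 ± 0.05). The calls of Hoxa3 (-0.27 ± 0.11) and Hoxb9 (-0.19 ± 0.06) were lost under 11 and 10 of 15 alternatives, other scalings among them. With the stricter filter, whose scaling moved all genes of this comparison up by a median of 0.12, 2 Hox genes rose and 9 fell. Hoxb2, Hoxb3, Hoxb4, Hoxb5, Hoxb7 and Hoxb8 did not pass.

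The responses of the lines differed for 14 of the 22 genes by the test of the difference itself (CTO19 minus apsMC706): 13 were higher and 1 lower, against 30.4% and 25.6% of all tested genes, with a median of 1.09 against 0.06. In HoxB the difference passed for 8 of 9 genes, as for Hoxb6 (log2 1.69 ± 0.09 (SE), adjusted p = 1.24e-09), which fell in apsMC706 and rose in CTO19, and Hoxb5 (1.93 ± 0.18). Hoxb2 did not pass (0.74 ± 0.77), with 1 to 6 counts per library in apsMC706. For Hoxa5, Hoxa6 and Hoxa7, which fell or were lower in noEGF in both lines, the difference did not pass. For Hoxa7 it was 0.15 with a 95% interval of -0.14 to 0.44, for Hoxa5 0.24 with -0.13 to 0.61, and for Hoxa6 0.08 with -1.56 to 1.71.

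Other measures moved with the medium. The share of counts from the 13 protein genes of the mitochondrial genome was 2.94% to 3.47% in CTO19 EM and 5.11% to 5.19% in CTO19 noEGF. In apsMC706 it was 3.07% to 3.68% in EM and 4.13% to 4.60% in noEGF. The 7 squamous genes summed to 9199 to 9396 CPM in CTO19 EM and 6695 to 7419.8 in noEGF, and to 83.3 to 84.6 and 81.5 to 82.4 in apsMC706. The 8 fibroblast markers summed to 1.88 to 1.97 CPM in CTO19 EM and 11 to 11.5 in noEGF, of which Dcn was 9.90, with Lum at 0 in EM, and to 4.15 to 4.22 and 7.88 to 9.03 in apsMC706, with Col1a2, Lum and Thy1 at 0 in both media. The 6 immune markers summed to 5.11 to 5.47 and 11.7 to 13.2 CPM in CTO19, with Cd3e at 0 in both media, and to 1.19 to 1.44 and 7.69 to 7.83 in apsMC706. Endothelial markers summed to at most 1.79 CPM in a library, neuron and glia markers to at most 1.54, and smooth muscle markers, mostly Acta2, to 14.8 to 36.2. The part of these measures in the Hox responses was not tested.

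Transcripts beside the Hox genes followed them in part. Hottip, a non-coding RNA that starts next to Hoxa13 and is known to bring MLL complexes to it, had 417 and 376 counts in apsMC706 EM and none in CTO19 EM, at least 124-fold lower in CTO19. Hoxa11os had 1218 and 1186 and none, at least 377-fold lower. Evx1, the homeobox gene beyond the 5′ end of HoxA, stood at 16.5 and 18.6 CPM in apsMC706 EM, 17.8 and 18.3 in apsMC706 noEGF, 2.17 and 2.39 in CTO19 EM and 1.32 and 2.58 in CTO19 noEGF, a log2 difference in EM of -2.94 ± 0.19 (SE), adjusted p = 2.04e-07. It did not pass between the media in apsMC706 (log2 0.04 ± 0.14), and neither did Hottip (0.02 ± 0.10), and whether they differ from Hoxa13 was not tested. Farther genes differed by less: Hibadh, beyond Evx1, differed by -0.40 ± 0.04 in EM, and Skap2 and Snx10, beyond the 3′ end of HoxA, by -1.50 ± 0.05 and 0.38 ± 0.06.

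**Figure D4:**
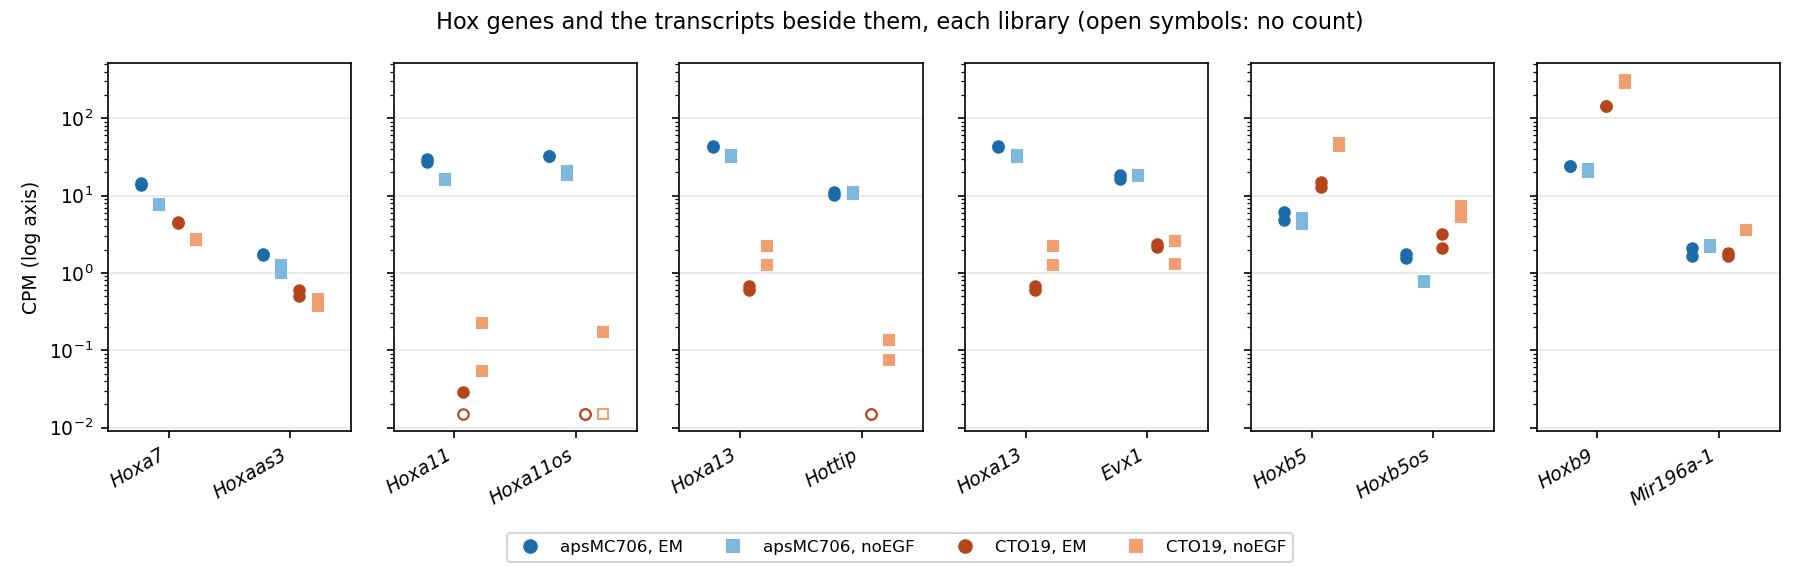
CPM on a log axis of 6 pairs of a Hox gene (left in each panel) and a transcript beside it (right), with a point for each library, the 4 groups in colours and shapes as in the legend, and open symbols for no count. Hoxa11os, Hottip and Evx1 are lower in CTO19 with Hoxa11 and Hoxa13. Mir196a-1 lies at 1.65 to 3.63 CPM in all libraries.

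Hoxaas3, antisense to Hoxa7, was lower in CTO19 in EM (-1.62 ± 0.25), as Hoxa7 was. In HoxB, Hoxb5os, antisense to Hoxb5, rose in CTO19 (log2 1.23 ± 0.20 (SE), adjusted p = 8.84e-05) and fell in apsMC706 (-1.08 ± 0.29), and its exons share 3.6% of those of Hoxb5. The precursor gene of miR-196a between Hoxb13 and Hoxb9 had 57 and 64 counts in CTO19 EM and 135 and 145 in noEGF, and rose with Hoxb9 and Hoxb8 (log2 1.07 ± 0.17 (SE), adjusted p = 5.28e-05). Its line difference in EM did not pass (log2 -0.12 ± 0.19 (SE), adjusted p = 0.572), although Hoxb8 and Hoxb9 differed strongly there. The precursor of miR-10a next to Hoxb4 had 3 and 1 counts in apsMC706 EM, 3 and 3 in apsMC706 noEGF, 11 and 6 in CTO19 EM and 20 and 24 in CTO19 noEGF. It was higher in CTO19 in noEGF (log2 2.77 ± 0.51 (SE), adjusted p = 0.000148), and its calls in EM and between the media of CTO19 were each lost under 3 alternatives, with DESeq2's test (adjusted p = 0.0653 and 0.195) and without 1 of the libraries (0.102 without apsMC706 EM replicate 2 and 0.138 without CTO19 EM replicate 1 for EM, 0.168 without CTO19 EM replicate 2 and 0.0658 without CTO19 noEGF replicate 2 for the media). Mir196b in HoxA, Mir196a-2 and Hotair in HoxC and Evx2 beyond HoxD had no count in any library. All 85 bases of Mir196b lie in exons of Hoxa9 on the same strand. Its count of 0 therefore does not show that it was silent.

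Genes that act with Hox proteins or on Hox clusters come from lists of known members, and each count stands beside the shares of all genes given above for the same comparison. Among the 10 tested TALE cofactors, 4 were higher and 2 lower in CTO19 EM, and 7 rose and 3 fell in CTO19 noEGF, while 7 rose and 2 fell in apsMC706. Their median log2 difference was 0.10 in EM (0.02 over all genes) and 0.52 for the CTO19 response. Meis2, a partner of Hox proteins, was higher in CTO19 EM (1.29 ± 0.13), and Meis3 was lower (-0.90 ± 0.14).

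Of the 6 Cdx and ParaHox genes, Cdx2 alone was tested. It stood at 9.23 and 9.40 CPM in apsMC706 EM, 9.98 and 10.2 in apsMC706 noEGF, 1.79 and 2.30 in CTO19 EM and 0.861 and 1.34 in CTO19 noEGF, was lower in CTO19 EM (log2 -2.18 ± 0.15 (SE), adjusted p = 4.33e-09) and fell in CTO19 noEGF (-0.89 ± 0.21). Cdx4 and Gsx1 had no count in any library.

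Of the 13 tested retinoic acid genes, 11 were higher and 2 lower in CTO19 EM, with a median log2 difference of 2.29. Stra6, the cell-surface receptor that takes up retinol, had 6.59 ± 0.0357 CPM in apsMC706 EM and 817 ± 23.5 in CTO19 EM, and Rxra, a partner of the retinoic acid receptors, had 4.77 ± 0.193 and 104 ± 2.35. Rarg, a retinoic acid receptor, had 17.0 ± 1.06 and 78.0 ± 1.12. Aldh1a1, an enzyme that makes retinoic acid, went from 131 ± 12.2 to 597 ± 34.1 CPM between the media in CTO19 (log2 2.19 ± 0.06 (SE), adjusted p = 6.3e-11) and did not pass in apsMC706 (0.14 ± 0.07). In CTO19 noEGF 8 of the 13 rose and 2 fell, and in apsMC706 9 rose and 0 fell.

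Of the 12 genes of PRC2, the Polycomb complex that places the H3K27 methyl mark, 10 fell and 2 rose in apsMC706 noEGF, and 7 fell and 4 rose in CTO19, with median responses of -0.71 and -0.21. Ezh2, its enzyme, had 121 ± 0.687 CPM in EM and 53.1 ± 1.53 in noEGF of apsMC706, and 114 ± 0.606 and 104 ± 0.670 in those of CTO19, and Ezh1, the alternative enzyme, rose in both (log2 0.89 ± 0.05 and 0.62 ± 0.05). In CTO19 EM, 8 of the 12 were lower and 3 higher. Of 20 PRC1 genes, 10 were higher and 5 lower in CTO19 EM, and the responses were 6 up and 9 down in apsMC706 and 10 and 5 in CTO19, with medians of -0.02 and 0.19. The apsMC706 split turned with the scaling, to between 7 and 10 up and 7 and 8 down. Cbx2, a PRC1 subunit, fell in apsMC706 and rose in CTO19 (log2 -0.76 ± 0.08 and 0.79 ± 0.06).

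Of 16 genes of MLL complexes and H3K27 demethylases, 3 were higher and 9 lower in CTO19 EM, and the responses were 5 up and 10 down in apsMC706 and 9 and 5 in CTO19, with medians of -0.32 and 0.10. Kdm6b, a demethylase that removes the Polycomb mark, rose in both lines (log2 1.14 ± 0.06 in apsMC706 and 0.46 ± 0.06 in CTO19), as did Kdm6a (0.28 ± 0.05 and 1.01 ± 0.05). Of 4 tested small intestine genes 1 was higher and 3 were lower in CTO19 EM, and of 6 stomach genes 2 were higher and 1 was lower. Under other scalings, filters or DESeq2's test, 1 to 2 of the small intestine genes were higher and 1 to 3 lower, and 0 to 1 of the stomach genes lower. The stomach genes Tff1 and Tff2 had 5.33 ± 0.573 and 4.66 ± 0.527 CPM in CTO19 EM and 0.107 ± 0.0358 and 0.0132 ± 0.0187 in apsMC706 EM. Summed over the whole list of 9 stomach genes, the highest level was in apsMC706 noEGF, at 33.2 to 33.6 CPM. The sum was 4.385 to 4.445 in apsMC706 EM, 13.1 to 13.2 in CTO19 EM and 13.4 to 17.2 in CTO19 noEGF. Of the 6 stomach genes tested, 1 rose and 1 fell in apsMC706 noEGF, with a median log2 of -0.13. The higher sum there was thus not shared across the list.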

How the data were processed

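RNA was sequenced from 8 organoid libraries. The authors deposited raw counts per gene, and aligned reads with STAR 2.7.0a to mm10, per the submitters' processing notes. The sources used here do not give the counting program, its strand setting or the annotation release. No column of the table was without a sample.

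From the deposited counts, genes were filtered with filterByExpr and scaled by TMM, and a model of the 4 group means was fitted with edgeR 4.0.16 in R 4.3.3 (robust quasi-likelihood F-test, two-sided, 4 residual degrees of freedom, Benjamini-Hochberg over 16719 genes, threshold 0.05). The biological coefficient of variation was 4.27%. Each SE was derived from the test, as the size of the log2 value divided by the square root of its F statistic. Where a group had few counts, as for Hoxb13 and Hoxa9 in CTO19, it can be smaller than counting error alone. Exon lengths, overlaps and coordinates came from GENCODE M21 (GRCm38), in which 32680 of 32728 gene IDs were found. The alternatives were DESeq2 1.42.0 size factors and Wald test, upper-quartile factors, no filter, a stricter filter, a replicate block, the 4 libraries of a comparison alone, each library left out, and longest transcripts. Scripts were tested on simulated data. A count of 0 was taken to allow up to 3 counts per library. The 95% intervals of count ratios cover counting error only, and those of log2 differences come from the SE of the edgeR fit.

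Library values are given for Hox genes with a mean of at least 1 CPM in some group, and up to 4 genes of smallest p per other list, comparison and direction could be named. Members and lists were chosen with earlier results of these data known, and the 4-fold rule and the 3 motifs after the values were seen. Values of 1 Hox gene and of some other genes are not reported here.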

Additional observations from a re-analysis of the deposited data

Results flagged for a closer look

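The response to the medium differed between the lines for 11 of the Hox genes described by library, by the test of the difference itself (CTO19 minus apsMC706, log2, edgeR, ± SE). For the HoxB genes it was 1.62 ± 0.18 (Hoxb3), 1.13 ± 0.14 (Hoxb4), 1.93 ± 0.18 (Hoxb5), 1.69 ± 0.09 (Hoxb6), 1.05 ± 0.09 (Hoxb7), 0.808 ± 0.20 (Hoxb8) and 1.27 ± 0.08 (Hoxb9). The posterior genes fell in apsMC706 and rose from few counts in CTO19: 4.09 ± 0.51 for Hoxa10, 3.86 ± 1.04 for Hoxa11, 1.89 ± 0.29 for Hoxa13 and 6.78 for Hoxb13 (5.73 without CTO19 noEGF replicate 2). The Hoxb13 value is a fitted one against a group with no count, depends on the prior count and is no bound. The Hoxa11 value was 2.43 without CTO19 noEGF replicate 2, which ended its call (edgeR adjusted p = 0.207), 6.26 without CTO19 EM replicate 1 and 2.99 without CTO19 EM replicate 2.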

How the results depend on the processing

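The line differences of the clusters held under the 15 alternatives: in EM, 8 HoxA genes were lower and 8 HoxB genes higher in CTO19 under each, and in noEGF 8 to 10 and 8. In CTO19 noEGF 8 to 9 HoxB genes rose. Of 1395 values of single genes, 1330 kept direction and side of the threshold, 27 lost the call, 7 gained it and 31 changed sign, none of them a called value. With 1 library left out, 9 Hox genes were higher and 10 lower in EM each time, 9 higher and 9 to 11 lower in noEGF, 1 rose and 9 to 12 fell in apsMC706, 12 to 13 rose and 3 to 4 fell in CTO19, and 11 to 13 and 1 differed in response. The stricter filter gave 2 rises in apsMC706. Other lost calls included those of Hoxa3 (adjusted p 0.106 to 0.364, edgeR or DESeq2) and Hoxb9 (0.0548 to 0.363) in apsMC706. Hoxb8 gained its call in apsMC706 with the stricter filter (0.0408). Signs changed for uncalled log2 values. Hoxb2 in apsMC706 was 0.0555 with DESeq2 size factors, 0.075 with upper-quartile factors, 0.064 unfiltered, 0.117 with the stricter filter, 0.0567 with DESeq2's test and -1.68 to 0.727 with a library left out. Hoxb7 there was 0.00335, 0.0237, 0.012, 0.0669 and 0.00325 in the same order and -0.13 to 0.0333 with a library left out, and Hoxb3 was -0.0308 (without apsMC706 EM replicate 2) to 0.136. With a library left out, Hoxa9 in CTO19 was -0.206 (without CTO19 noEGF replicate 2) to 0.511. The difference of responses was -0.00626 unfiltered and -0.109 to 0.262 with a library left out for Hoxa4, -0.0446 to 0.385 for Hoxa5 and -0.0418 to 0.675 for Hoxa9 with a library left out (both lowest without CTO19 noEGF replicate 2), and -0.00704 unfiltered, -0.0125 with the stricter filter and -0.346 to 0.673 with a library left out for Hoxa6. DESeq2 size factors moved sums to 50.8 CPM per kb for HoxA 9-13, 13.3 for HoxB 6-8, 56.5 for HoxB 9-13 and 0.0101 for HoxD 6-8 in apsMC706 noEGF, 17.7 for HoxB 6-8 in apsMC706 EM and 54.6 for HoxB 9-13 in CTO19 EM, each by more than the SD of 2 libraries. The cause of these changes was not tested. Deviations of same-numbered libraries correlated at -0.00825 to 0.0485 over all tested genes. Counting noise can hide a shared batch in such values, so they do not settle whether the numbers pair libraries. The fit with a replicate block changed no call and turned the sign of 1 uncalled value, Hoxb2 in apsMC706 (0.000734). With 1 library in a group, that library is assumed to vary like the others. Depth limits Hoxa10, Hoxa11, Hoxb13, HoxC and HoxD in CTO19, where 3 counts are 0.0745 to 0.0868 CPM.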
